A study of Arabidopsis thaliana with 8 samples.

Results

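NCED3, a gene of abscisic acid synthesis, and the 9 clade A protein phosphatase 2C (PP2C) genes were followed across 8 genotypes of Arabidopsis thaliana. Chosen by gene identifier, these 10 of the 37336 genes in the count table are NCED3 (AT3G14440), ABI1 (AT4G26080), ABI2 (AT5G57050), HAB1 (AT1G72770), HAB2 (AT1G17550), AHG1 (AT5G51760), PP2CA (AT3G11410), HAI1 (AT5G59220), HAI2 (AT1G07430) and HAI3 (AT2G29380). RNA was sequenced from the shoots of plants kept at 21 °C for 6 weeks, with days of 8 hours and nights of 16 hours. Each genotype had 3 biological replicate libraries, 24 in all. Every plant, controls included, carried summ2-8, an allele of the gene for the immune receptor SUMM2, so no genotype was wild type. The control carried summ2-8 alone. The other genotypes added pat1-1, path1-4 or path2-1 singly, the 3 pairs pat1-1path1-4, pat1-1path2-1 and path1-4path2-1, and all of pat1-1, path1-4 and path2-1 together, called the triple mutant here. PAT1, PATH1 and PATH2 are the PAT1 family, proteins that activate removal of the mRNA cap before decay. The labels name 1 allele for each mutated gene, name 2 pot sizes without tying them to genotypes, and do not say whether a library came from 1 plant or from a pool.

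Abscisic acid (ABA) is the plant hormone of water deficit, stomatal closure and seed dormancy. NCED3 encodes the epoxycarotenoid dioxygenase that catalyses the limiting step of ABA synthesis in leaves under drought. ABA bound to PYR/PYL receptors blocks clade A PP2Cs, which otherwise hold SnRK2 kinases inactive, and the freed kinases phosphorylate ABF transcription factors. Several PP2C genes are themselves induced by ABA, which makes their transcripts a common readout of the pathway and a negative feedback on it.

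The windows just upstream of 4 of the genes are shown because these genes carried the main differences in level: PP2CA and HAI2, which were lower in all 4 genotypes with pat1-1, NCED3, which was lower in 3 of those 4, and HAB1, which was called higher where path2-1 was combined with another mutation. Each is the 250 bases before the gene start in RefSeq TAIR10.1, 5′ to 3′ on the strand of the gene. Capitals mark the core of the ABA-responsive element (ABRE), ACGTG, or its reverse complement CACGT, the word that ABF factors bind. The windows lie at chr3:4834016-4834265 on the minus strand for NCED3, chr3:3585851-3586100 on the minus strand for PP2CA, chr1:2282829-2283078 on the minus strand for HAI2 and chr1:27389698-27389947 on the plus strand for HAB1.
NCED3: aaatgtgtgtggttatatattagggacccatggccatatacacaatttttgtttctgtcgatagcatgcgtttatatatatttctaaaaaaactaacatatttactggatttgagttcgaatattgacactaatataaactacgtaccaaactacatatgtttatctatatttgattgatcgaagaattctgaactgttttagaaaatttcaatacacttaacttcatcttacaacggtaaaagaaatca
PP2CA: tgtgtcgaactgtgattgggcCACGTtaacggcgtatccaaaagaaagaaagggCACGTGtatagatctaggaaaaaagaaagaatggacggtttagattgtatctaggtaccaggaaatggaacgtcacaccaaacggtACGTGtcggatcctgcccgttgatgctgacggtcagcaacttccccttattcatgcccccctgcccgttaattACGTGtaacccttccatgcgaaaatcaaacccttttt
HAI2: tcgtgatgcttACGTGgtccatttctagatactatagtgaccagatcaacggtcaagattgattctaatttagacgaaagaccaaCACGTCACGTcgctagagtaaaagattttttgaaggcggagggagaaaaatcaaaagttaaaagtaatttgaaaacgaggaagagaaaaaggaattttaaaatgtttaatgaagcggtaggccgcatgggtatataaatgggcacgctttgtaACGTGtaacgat
HAB1: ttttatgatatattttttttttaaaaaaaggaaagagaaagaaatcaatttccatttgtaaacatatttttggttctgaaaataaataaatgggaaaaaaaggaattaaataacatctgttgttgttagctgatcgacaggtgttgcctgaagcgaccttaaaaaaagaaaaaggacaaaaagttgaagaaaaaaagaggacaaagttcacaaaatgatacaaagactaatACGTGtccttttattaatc

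The PP2CA window held 5 copies of the core, at -229, -196, -195, -110 and -37 from the gene start, of which the pair at -196 and -195 overlap as the palindrome CACGTG. The HAI2 window held 4, at -239, -165, -160 and -12, and the HAB1 window held 1, at -19. The NCED3 window held 0, as did those of ABI1, ABI2 and HAI1. Of all 27443 protein-coding genes with such a window, 22.9% held the core on either strand, against 6 of the 10 genes described here. The core with 1 more base, ACGTGG, was in 8.23% of all windows and in 5 of the 10, the G-box CACGTG, which contains the core on both strands, in 6.49% and in 2 of the 10, and the drought-responsive element CCGAC in 12.0% and in 2 of the 10. NCED3 (chromosome 3, 4831286 to 4834015) has no intron in the annotation and codes for 599 residues. The PP2C genes lie on all 5 chromosomes with 2 to 5 introns in the transcript of longest coding sequence. The closest pairs in coding sequence were HAB1 with HAB2 (78.9% identical aligned bases, longest identical run 33 bases), ABI1 with ABI2 (78.8%, 26 bases) and HAI2 with HAI3 (75.7%, 21 bases).

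Library totals ran from 14187145 to 39180748 counts, and replicates correlated at r = 0.981 to 0.994 over log2 CPM. The double mutants pat1-1path2-1 and path1-4path2-1, with 6 libraries, stood apart on the second principal component (14.5% of the variance), at -42.2 to -25.5, while the other 18 lay between 2.83 and 26.1. PAT1 transcript was at 63.5 to 90.3% of the control in the 4 genotypes with pat1-1 and at 99.96 to 117% in the other 3, and it was called lower in all of the 4 except pat1-1path2-1 (edgeR adjusted p = 0.258). PATH1 was at 78.0 to 93.6% in the 4 genotypes with path1-4, with no call in path1-4path2-1 (edgeR adjusted p = 0.344). The double mutant pat1-1path2-1, which lacks path1-4, had it at 131%. PATH2 was at 105 to 118% in the 4 genotypes with path2-1, so its transcript level does not check that label. Leaf markers were abundant (RBCS1A 14631 to 38295 TPM), and the 4 seed markers were at most at 0.111 TPM, too low to be tested. In RNA from whole shoots, fewer cells of a type and less RNA per cell cannot be told apart.

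Levels are given as the deposited TPM, which scale counts by gene length and by library, so levels of different genes can be set side by side. Averaged over the 24 libraries, ABI1 and PP2CA were the most abundant of the 10 genes at 56.0 and 54.5 TPM, followed by HAB2 at 31.3, HAB1 at 26.8, NCED3 at 14.1, ABI2 at 12.6, HAI2 at 7.74 and HAI1 at 5.19 TPM. AHG1, a phosphatase best known from seeds, and HAI3 were barely detected. AHG1 had 10 counts over all libraries and 0 in 18 of them, and HAI3 had 22 counts and 0 in 9 of the libraries. AHG1 had 0 counts in pat1-1, pat1-1path2-1 and the triple mutant, where a count of 0 allows up to 0.0429, 0.0381 and 0.0359 CPM (3 counts per genotype, counting error only). The filter on low counts removed both, so 8 of the 10 genes were tested, 7 of them phosphatases. With no filter neither was called in any comparison.

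**Figure D1:**
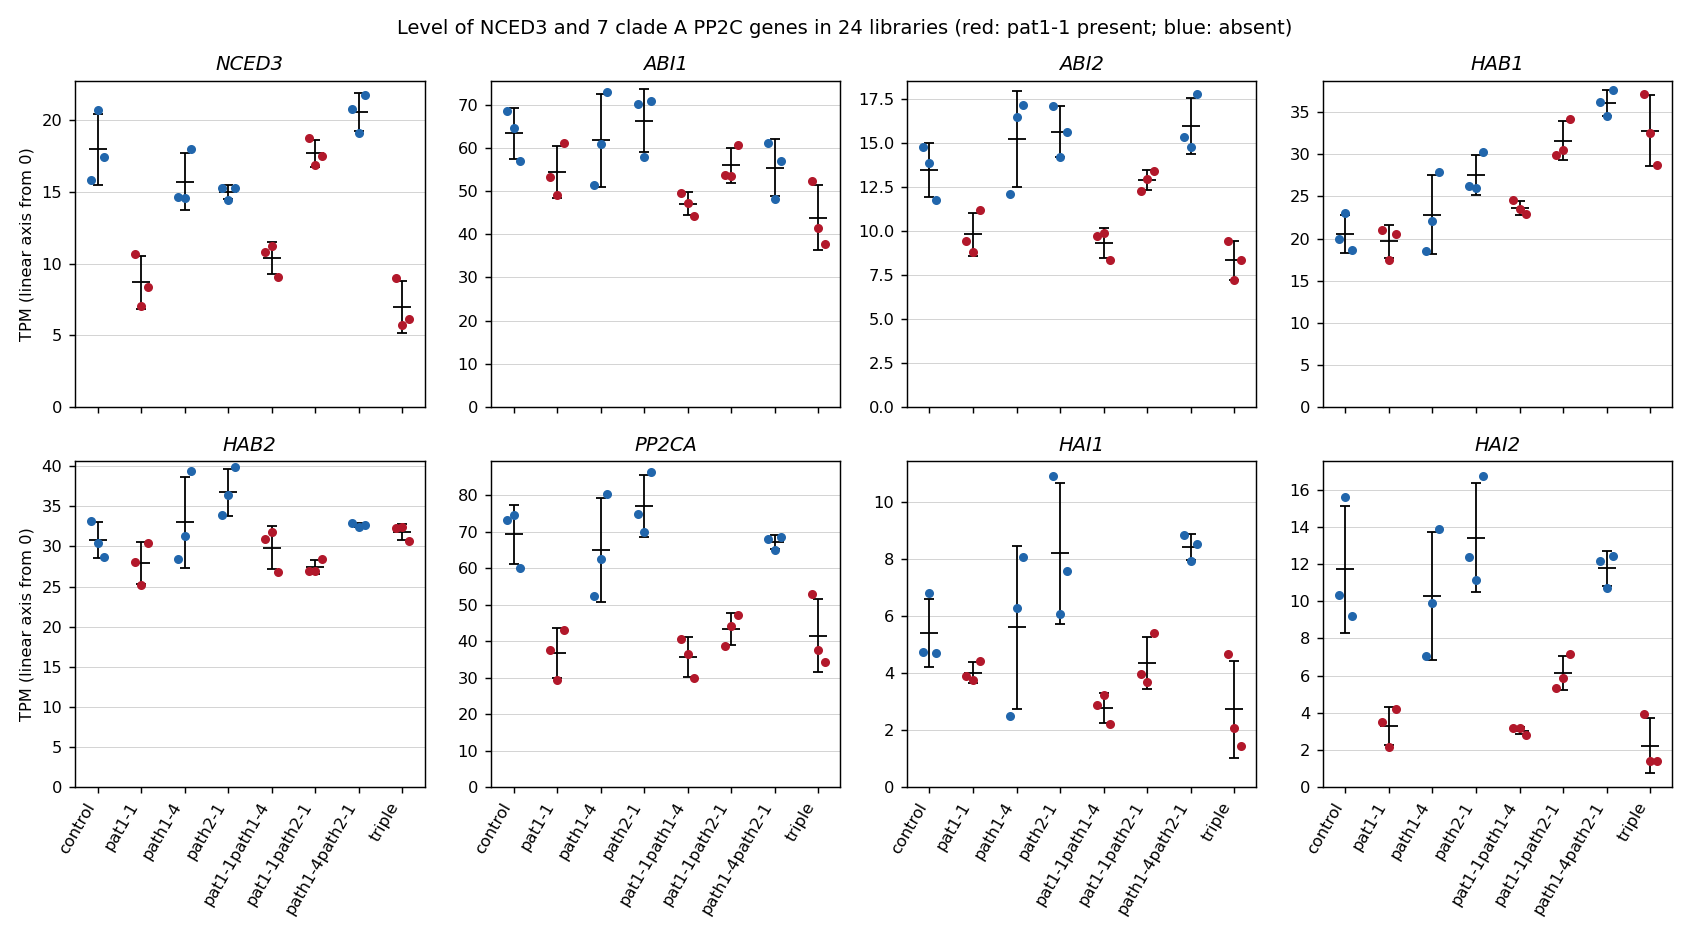
TPM of NCED3 and the 7 tested PP2C genes (vertical axes, linear and starting at 0) in the 8 genotypes (horizontal axes), with 1 point per library, the mean as a long bar and the SD over 3 libraries as whiskers. Red points carry pat1-1 and blue points do not. NCED3 is low in pat1-1, pat1-1path1-4 and the triple mutant but not in pat1-1path2-1, PP2CA and HAI2 are low in all 4 genotypes with pat1-1, and HAB1 has its 4 highest means in the genotypes with path2-1.

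NCED3 fell in pat1-1, in pat1-1path1-4 and most in the triple mutant, while in pat1-1path2-1 its level lay within the range of the control. It was at 15.8, 20.7 and 17.4 TPM in the 3 control libraries and at 10.7, 7.05 and 8.35 TPM with pat1-1 alone. The double mutant pat1-1path1-4 had 10.8, 11.2 and 9.09 TPM, and the triple mutant 9.01, 5.70 and 6.16. The 9 libraries of those 3 mutants all lay below every other library. In pat1-1path2-1 it was at 18.7, 16.8 and 17.5 TPM. The mutants without pat1-1 reached down to 14.4 TPM and no lower, with 14.6, 14.5 and 18.0 TPM for path1-4, 15.3, 14.4 and 15.3 for path2-1, and 20.8, 19.1 and 21.8 for path1-4path2-1. Ordered by mean, path1-4path2-1 (20.5 TPM) was followed by the control (18.0), pat1-1path2-1 (17.7), path1-4 (15.7) and path2-1 (15.0), each overlapping its neighbour, then by a gap, and then by pat1-1path1-4 (10.4), pat1-1 (8.70) and the triple mutant (6.96), again overlapping in turn.

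Against the control, the log2 fold change of NCED3 was -1.04 ± 0.15 (SE) in pat1-1, or 48.6% of the control level, by edgeR's quasi-likelihood test on counts (Benjamini-Hochberg adjusted p = 0.000131 over all 20346 genes tested). It was -0.80 ± 0.15 in pat1-1path1-4 (edgeR adjusted p = 0.000511) and -1.40 ± 0.15 in the triple mutant, 38.0% of the control (edgeR adjusted p = 3.96e-07). All 3 calls held in every alternative run. No call was made in path1-4 (-0.19, edgeR adjusted p = 0.697), path2-1 (-0.36, 0.299), pat1-1path2-1 (0.00, 0.989) or path1-4path2-1 (0.13, 0.573).

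HAI2, one of the HIGHLY ABA-INDUCED phosphatases, changed most of the 8 genes tested and fell in all 4 genotypes with pat1-1. The control libraries had 10.3, 15.6 and 9.21 TPM and those of pat1-1 3.51, 2.19 and 4.21. The double mutant pat1-1path1-4 had 3.17, 3.16 and 2.81 TPM, pat1-1path2-1 5.36, 5.89 and 7.15, and the triple mutant 3.93, 1.41 and 1.39. Each of the 12 libraries with pat1-1 was below every control library. The mutants without pat1-1 had 7.05, 9.92 and 13.9 TPM (path1-4), 12.4, 11.2 and 16.7 (path2-1) and 12.1, 10.7 and 12.5 (path1-4path2-1), so that of the 24 libraries only path1-4 replicate 1 (7.05) and pat1-1path2-1 replicate 3 (7.15) crossed between carriers and non-carriers of pat1-1. The log2 fold change of HAI2 was -1.83 ± 0.31 in pat1-1 (edgeR adjusted p = 0.00041) and -1.95 ± 0.31 in pat1-1path1-4 (9.25e-05). It was -0.92 ± 0.29 in pat1-1path2-1 (edgeR adjusted p = 0.0182) and -2.42 ± 0.32 in the triple mutant (3.34e-06), where the level was 18.7% of the control. The pat1-1path2-1 call ended without control replicate 2 (edgeR adjusted p = 0.117) and without pat1-1path2-1 replicate 1 (0.0749) or 2 (0.0527), and the value in the triple mutant was -3.10 without its replicate 1.

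PP2CA, a phosphatase that restrains ABA signalling in seeds and guard cells, fell in all 4 genotypes with pat1-1. The control had 73.2, 74.7 and 59.98 TPM, pat1-1 37.7, 29.4 and 43.1, and pat1-1path1-4 40.8, 36.5 and 29.9. The double mutant pat1-1path2-1 had 38.8, 44.1 and 47.3 TPM and the triple mutant 52.9, 37.6 and 34.3. The control and the mutants with pat1-1 did not overlap. Without pat1-1 it was at 52.3 to 86.5 TPM, with the lowest value in path1-4 replicate 1, just under triple replicate 1 (52.9). Its log2 fold change was -0.90 ± 0.16 for pat1-1 (edgeR adjusted p = 0.000707), -0.96 for pat1-1path1-4 (0.000186), -0.66 for pat1-1path2-1 (0.00385) and -0.76 for the triple mutant (0.000648). Ordered by mean, the 4 genotypes with pat1-1 overlapped in turn, from 43.4 TPM in pat1-1path2-1 to 35.7 in pat1-1path1-4.

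HAI1, a drought-induced phosphatase of the same subgroup as HAI2, varied more between replicates. The control had 4.74, 6.79 and 4.69 TPM and pat1-1 3.89, 3.75 and 4.43. The double mutant pat1-1path1-4 had 2.90, 3.23 and 2.204 TPM and the triple mutant 4.67, 2.07 and 1.45. The path1-4 single mutant spread from 2.48 to 8.07 TPM and path2-1 from 6.07 to 10.9, wider than most differences between genotypes. The double mutant pat1-1path2-1 had 3.97, 3.69 and 5.41 TPM, and path1-4path2-1 had 8.84, 7.94 and 8.52, above every control library. Against the control neither was called, at -0.31 (edgeR adjusted p = 0.528) and 0.58 (0.235). HAI1 was called lower in pat1-1path1-4 (-0.97 ± 0.36, edgeR adjusted p = 0.0442) and in the triple mutant (-1.02 ± 0.36, edgeR adjusted p = 0.0247) and was at -0.41 in pat1-1 with no call (edgeR adjusted p = 0.422). The call in pat1-1path1-4 held in 6 of 13 alternatives and was lost without control replicate 2 (edgeR adjusted p = 0.171) or 3 (0.0555) and without any 1 of the 3 mutant libraries (0.0605 to 0.162). It was also lost without the genotypes pat1-1path2-1 and path1-4path2-1, which stood apart (edgeR adjusted p = 0.0778), and with the length trend removed (0.0517). The triple call was lost without control replicate 2 (edgeR adjusted p = 0.107), triple replicate 2 (0.110) or triple replicate 3 (0.130) and with only the control and the triple mutant fitted (0.0735), and the change was -1.67 without triple replicate 1.

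ABI1 and ABI2, the pair in which dominant ABA-insensitive mutations first defined the clade, fell less. For ABI2 the control had 14.7, 13.8 and 11.8 TPM, pat1-1 9.45, 8.77 and 11.2, and pat1-1path1-4 9.68, 9.87 and 8.32. The double mutant pat1-1path2-1 had 12.3, 12.9 and 13.4 TPM and the triple mutant 9.43, 7.197 and 8.37. Like NCED3, its levels in pat1-1path2-1 lay within the control range, and a gap separated them from the other genotypes with pat1-1. Its log2 fold change was -0.44 ± 0.13 with pat1-1 (edgeR adjusted p = 0.02), -0.54 with pat1-1path1-4 (0.00368), -0.71 with all 3 mutations (0.000146) and -0.04 with pat1-1path2-1, the last not called (0.835). The pat1-1 call ended without control replicate 1 (edgeR adjusted p = 0.0605) or 2 (0.0642) and without pat1-1 replicate 1 (0.0583) or 2 (0.0932).

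ABI1 was at 56.9 to 68.6 TPM in the control, 44.3 to 49.6 in pat1-1path1-4 and 37.8 to 52.3 in the triple mutant, and these mutants did not overlap the control. In pat1-1 it reached 61.1 TPM and overlapped it. ABI1 fell by 0.43 ± 0.12 on the log2 scale in pat1-1path1-4 (edgeR adjusted p = 0.0108, and 0.0559 without its replicate 3) and by 0.55 ± 0.12 in the triple mutant (edgeR adjusted p = 0.000924). In pat1-1 the value was -0.20, with no call (edgeR adjusted p = 0.258).

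HAB1 was called higher in the 3 combinations that carried path2-1. HAB1 and its close copy HAB2 are negative regulators of ABA responses named for their homology to ABI1 and ABI2. The control had 19.9, 23.1 and 18.7 TPM of HAB1 and path2-1 alone 26.3, 26.05 and 30.2. The double mutant pat1-1path2-1 had 29.97, 30.6 and 34.2 TPM, path1-4path2-1 36.2, 34.5 and 37.7, and the triple mutant 37.2, 32.6 and 28.7. Genotypes without path2-1 had means from 19.7 TPM in pat1-1 to 23.7 in pat1-1path1-4, with a highest single library of 27.9 in path1-4, above the lowest library with path2-1 at 26.05. Its log2 fold change was 0.64 ± 0.11 for pat1-1path2-1 (edgeR adjusted p = 0.000204), 0.76 ± 0.11 for path1-4path2-1 (8.37e-05) and 0.65 ± 0.11 for the triple mutant (7.43e-05), and all 3 calls held in every alternative run. In path2-1 alone it was at 0.33 ± 0.11, which was not called (edgeR adjusted p = 0.229, unadjusted 0.0081), with each library above every control library. HAB2 stayed between 25.3 and 39.9 TPM in all libraries and was called against the control in no genotype, with values from -0.14 to 0.16 on the log2 scale and edgeR adjusted p of 0.209 or more.

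**Figure D2:**
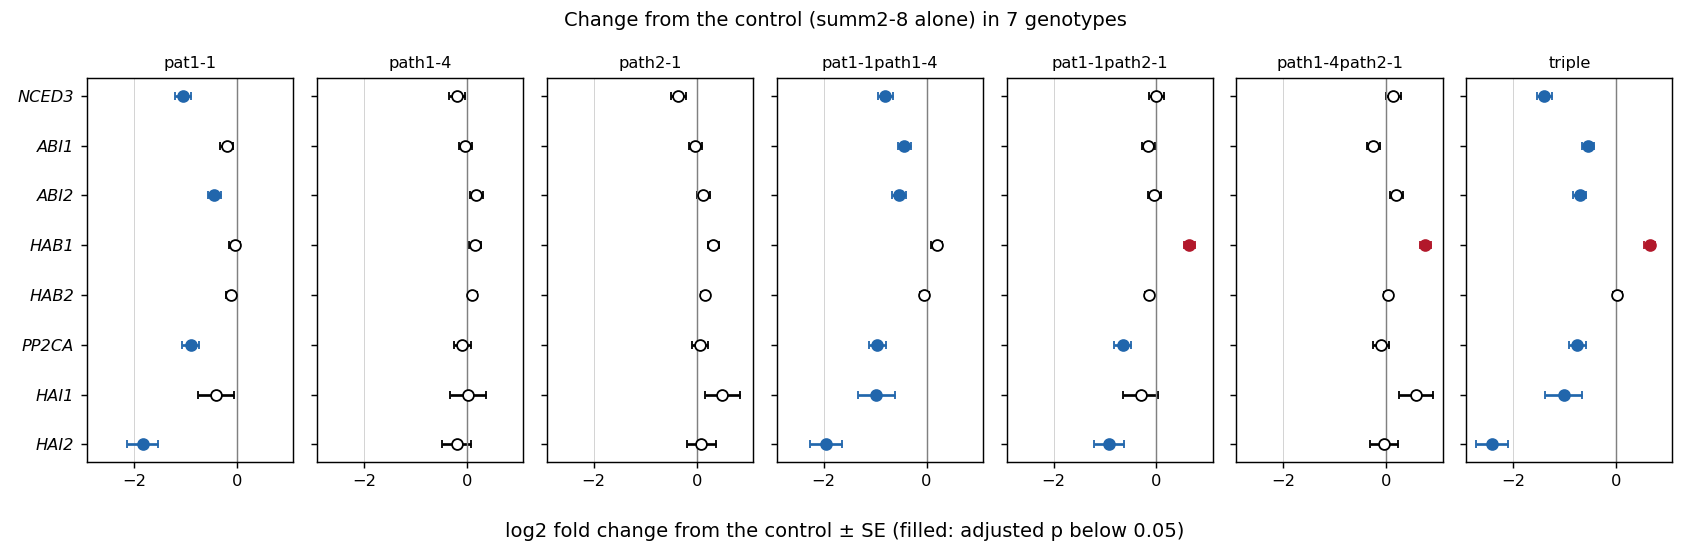
Log2 fold change from the control (horizontal axes, edgeR, bars ± SE, 3 libraries per genotype) of the 8 tested genes in the 7 mutant genotypes, 1 panel each. Filled symbols passed an adjusted p below 0.05, blue where lower and red where higher. In path1-4 and path2-1 no symbol is filled, and in the triple mutant 6 are lower, HAB1 is higher and HAB2 is open.

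Counted over the 8 genes tested, 4 fell and 0 rose in pat1-1 (NCED3, ABI2, PP2CA and HAI2), where 10.9% of all 20346 genes fell and 12% rose. In pat1-1path1-4, 6 fell and 0 rose, against 15.4% and 15.8% of all genes, and in the triple mutant 6 fell and 1 rose, against 22.6% and 22.8%. The median log2 fold change of the 8 genes was -0.42, -0.67 and -0.73 in these genotypes, in that order, beside -0.01, -0.01 and 0.00 over all genes tested. In pat1-1path2-1, 2 fell and 1 rose (16.7% and 15.9% of all genes), with a median of -0.15. In path1-4path2-1, 0 fell and HAB1 rose (10.3% and 9.18%). In path1-4, 0 were called by edgeR or by DESeq2 (0.103% of all genes fell and 0.0737% rose), and 0 passed an unadjusted p of 0.05. In path2-1, 0 were called by either tool (0.00983% of all genes each way), and 2, NCED3 and HAB1, passed an unadjusted p of 0.05. These comparisons share the 3 control libraries.

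The effect of pat1-1 was also read in each background that carried another mutation, which does not use the control libraries. Added to path1-4, pat1-1 lowered 5 of the 8 genes and raised 0 (11.3% and 10.8% of all genes). NCED3 was at -0.61 (edgeR adjusted p = 0.00653), PP2CA at -0.88 (0.000668), HAI2 at -1.76 (0.000448), ABI2 at -0.72 (0.000525) and ABI1 at -0.40 (0.0217). The ABI1 call ended without path1-4 replicate 2 (edgeR adjusted p = 0.0506) or 3 (0.132) and without pat1-1path1-4 replicate 2 (0.0554) or 3 (0.0929). Added to path1-4path2-1, a step that gives the triple mutant, pat1-1 lowered 6 and raised 0 (24.3% and 24.8% of all genes), with NCED3 at -1.53 ± 0.15 (edgeR adjusted p = 9.21e-08), HAI2 at -2.36 (3.4e-06), HAI1 at -1.60 (0.000727), ABI2 at -0.90 (7.49e-06) and PP2CA at -0.66 (0.00194). ABI1 at -0.30 (edgeR adjusted p = 0.0449) held in 6 of 12 alternatives, with the call lost without path1-4path2-1 replicate 1 (0.146) or 3 (0.110) and without triple replicate 2 (0.164) or 3 (0.196). That call was also lost with the length trend removed (edgeR adjusted p = 0.0915) and with only the compared genotypes fitted (0.0791).

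Added to path2-1, pat1-1 lowered 3 of the genes and raised 1 (19.9% and 18.7% of all genes). PP2CA was at -0.72 (edgeR adjusted p = 0.00154), HAI2 at -1.02 (0.00828) and HAB2 at -0.31 (0.00745), while HAB1 was at 0.31 (0.0301), a call lost without path2-1 replicate 1 (0.0776) or 2 (0.0918) or pat1-1path2-1 replicate 2 (0.0571) or 3 (0.106). NCED3 was at 0.35 ± 0.15, in the upward direction and not called (edgeR adjusted p = 0.066, and 0.00402 with only the 2 genotypes fitted).

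**Figure D3:**
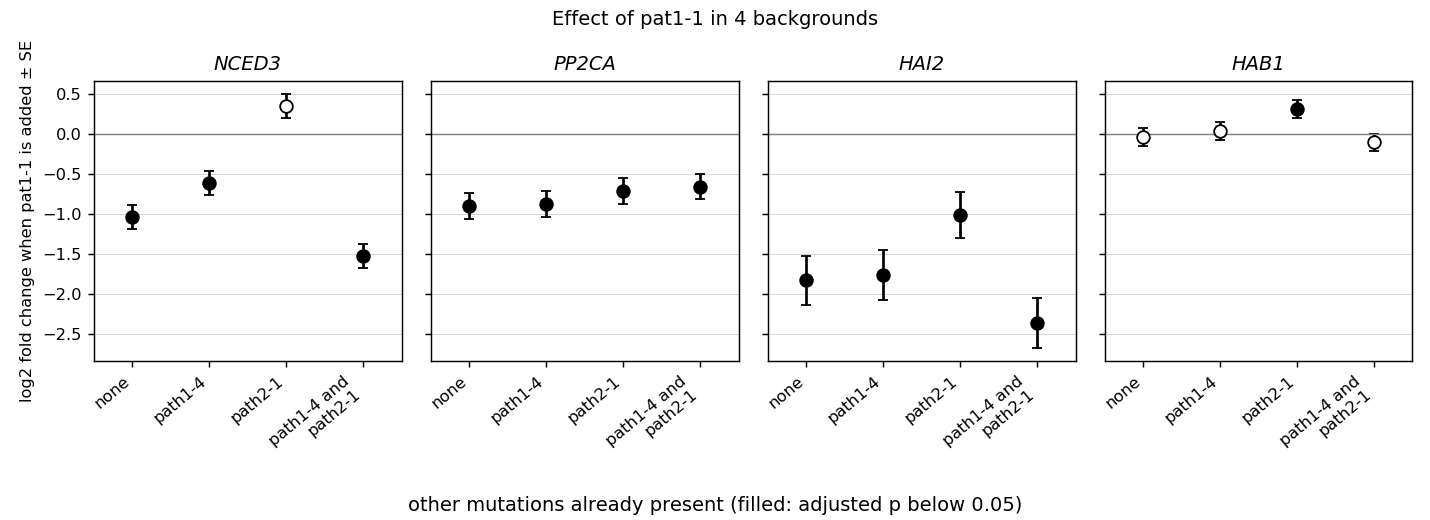
Log2 fold change when pat1-1 is added (vertical axis, edgeR, bars ± SE) in 4 backgrounds (horizontal axis: none, path1-4, path2-1, and path1-4 with path2-1) for NCED3, PP2CA, HAI2 and HAB1. Filled points passed an adjusted p below 0.05. PP2CA lies between -0.90 and -0.66 in all 4, while NCED3 runs from -1.53 to 0.35.

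The test of that difference was passed at the adjusted threshold by NCED3 alone of the 8 genes, while 2, NCED3 and HAB1, passed an unadjusted p of 0.05. The departure of pat1-1path2-1 from the sum of the pat1-1 and path2-1 effects was 1.39 ± 0.21 on the log2 scale for NCED3 (edgeR adjusted p = 0.000331; 14.7% of all genes were called in the same test), and it held in all 18 alternatives at 1.27 to 1.56. This value rests on pat1-1path2-1, which stood apart on the second principal component, and in which PAT1 was at 90.3% of the control without a call (edgeR adjusted p = 0.258) and PATH1 at 131%; their part in it was not tested. With path1-4 present beside path2-1, the pat1-1 effect on NCED3 was -1.53, as given above. The departure of pat1-1path2-1 was not called for HAI2 at 0.81 ± 0.42 (edgeR adjusted p = 0.201), PP2CA at 0.18 ± 0.23 (0.641) or HAB1 at 0.36 ± 0.16 (0.133). The departure of pat1-1path1-4 was called for 0 of the 8 genes by edgeR or DESeq2 (0.0442% of all genes), with 0 at an unadjusted p below 0.05, and NCED3 was at 0.43 ± 0.22 (edgeR adjusted p = 0.81, unadjusted 0.0617). The departure of path1-4path2-1 was called for 0 by edgeR (8.23% of all genes) and 1, NCED3, passed an unadjusted p of 0.05, at 0.68 ± 0.21, just short of a call (edgeR adjusted p = 0.0501). It was called by DESeq2 (adjusted p = 0.0266) and in 5 of the other 17 alternatives, among them those without control replicate 1 (0.0259) or path1-4 replicate 3 (0.0409). The triple mutant departed from the sum of the 3 single effects for 0 of the 8 genes by either tool (6.61% of all genes), with 1, ABI2, at an unadjusted p below 0.05 and NCED3 at 0.19 ± 0.30.

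Chosen after the data were seen, the pat1-1 effect in path1-4path2-1 was compared with that in path2-1, a test that rests on the genotypes standing apart on the second component and called 38.1% of all genes. NCED3 differed by -1.88 ± 0.21 (edgeR adjusted p = 1.04e-06) and ABI2 by -0.74 ± 0.18 (0.00295), and both held in all 18 alternatives. HAI2 differed by -1.35 ± 0.43 (edgeR adjusted p = 0.0165, lost without triple replicate 2 at 0.0584 or 3 at 0.0534, and -2.03 without triple replicate 1). HAB1 differed by -0.42 ± 0.16 (edgeR adjusted p = 0.0386), a call that held in 10 of the 18 and was lost when any 1 of 7 libraries was left out (0.0553 to 0.0937) and with the length trend removed (0.105). PP2CA did not pass at 0.06 ± 0.23 (edgeR adjusted p = 0.862). Against pat1-1path2-1, which lacks path1-4, the triple mutant was lower in 4 of the genes and higher in 0 (17.7% and 18.1% of all genes), with NCED3 at -1.39 ± 0.15 (edgeR adjusted p = 8.24e-07), HAI2 at -1.49 (0.00121), ABI2 at -0.67 (0.000422) and ABI1 at -0.40 (0.0153, lost without pat1-1path2-1 replicate 3 at 0.0615 and triple replicate 2 at 0.0767 or 3 at 0.0788).

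Against pat1-1path1-4, which lacks path2-1, the triple mutant was lower in 1 gene and higher in 1 (8.71% and 8.13% of all genes). NCED3 was at -0.60 ± 0.16 (edgeR adjusted p = 0.012) and HAB1 at 0.45 ± 0.11 (0.00777). The NCED3 call was lost without triple replicate 2 (edgeR adjusted p = 0.0773) or 3 (0.0570), the HAB1 call without triple replicate 1 (0.0559), and without that library HAI2 was called at -1.15 (0.0224). Triple replicate 1 had the highest value of the 3 triple libraries for each of the 8 genes except HAB2.

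The other genes of the ABA pathway were read from 7 lists, whose counts stand beside the 10.9% of all genes that fell and 12% that rose in pat1-1, and the 22.6% and 22.8% in the triple mutant. Of 7 tested synthesis genes other than NCED3, 0 were called in pat1-1, and in the triple mutant 2 rose and 0 fell, the rise being near the share of all genes. NCED5, which encodes another dioxygenase of the same step, rose by 2.22 ± 0.41 on the log2 scale (edgeR adjusted p = 0.000149), and ABA1, the zeaxanthin epoxidase, by 0.26 (0.0121). NCED5 was also higher in pat1-1path2-1 (2.02, edgeR adjusted p = 0.000864) and path1-4path2-1 (1.23, 0.0481), and was at 0.79 in pat1-1 with no call (0.224). ABA4, which acts in the synthesis of neoxanthin, was at 0.17 in the triple mutant (edgeR adjusted p = 0.101).

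Of 7 tested genes of ABA breakdown and conjugates, 2 fell in pat1-1 and 6 in the triple mutant, with 0 rising in either. In pat1-1path1-4, 5 fell and 0 rose (15.4% and 15.8% of all genes), and in pat1-1path2-1 5 fell and 1 rose (16.7% and 15.9%). In path1-4path2-1, which lacks pat1-1, 2 fell and 0 rose (10.3% and 9.18%). In the triple mutant the ABA 8'-hydroxylase gene CYP707A3 fell by 1.32 ± 0.22 (edgeR adjusted p = 6.97e-05), UGT71C5, which glucosylates ABA, by 0.65 (3.52e-07), and BG2, a glucosidase that releases ABA from its glucose ester and so acts in the opposite sense to the list's name, by 0.99 (0.0011). The 2 that fell in pat1-1 were BG2 at -0.81 (edgeR adjusted p = 0.0128) and BG1 at -0.93 (0.0325). There CYP707A3 at -0.59 (edgeR adjusted p = 0.0569) and UGT71C5 at -0.19 (0.0593) were not called. The median log2 change of that list was -0.93 in the triple mutant, beside 0.00 over all genes. Of 4 transport genes, 1 fell and 1 rose in the triple mutant, again near the share of all genes. ABCG25, an ABA exporter of the vasculature, was at -1.23 (edgeR adjusted p = 0.000105), NPF4.6, an importer, at 0.27 (0.0122), and DTX50, an exporter, at 0.45 with no call (0.275). ABCG25 also fell in pat1-1 (-0.91, edgeR adjusted p = 0.00533).

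Of 14 PYR/PYL receptors 9 were tested. In pat1-1, 1 fell and 3 rose, and in the triple mutant 2 fell and 2 rose, with PYL2 at -0.82 (edgeR adjusted p = 0.000131), PYL7 at 0.52 (0.000302) and PYL5 at 0.58 (0.0302). In path1-4path2-1, which lacks pat1-1, 5 receptor genes fell and 1 rose (10.3% and 9.18% of all genes). Of the 3 SnRK2 kinases of the core pathway, 0 were called in pat1-1 and 3 fell in the triple mutant, SNRK2.3 by 0.73 (edgeR adjusted p = 8.45e-06), SNRK2.2 by 0.37 (0.000114) and SNRK2.6, also called OST1 and needed for stomatal closure, by 0.34 (0.0198). All 3 also fell in pat1-1path2-1, 2 of them in pat1-1path1-4 and 1 in path1-4path2-1 (16.7%, 15.4% and 10.3% of all genes fell, in that order). Of 5 tested ABF and ABI transcription factors, 3 fell and 0 rose in pat1-1, and 3 fell and 1 rose in the triple mutant, with ABF1 at -0.96 (edgeR adjusted p = 1.33e-07), ABF3 at -0.38 (0.0337) and ABF4 at 0.19 (0.0359).

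Of 10 ABA-induced output genes, 3 fell and 0 rose in pat1-1, and 4 fell and 1 rose in the triple mutant. HIS1-3, a drought-induced linker histone gene, was at -1.70 ± 0.25 in pat1-1 (edgeR adjusted p = 0.000137) and -4.12 ± 0.30 in the triple mutant (1.25e-09). RD29B, an ABA marker gene with ABREs in its promoter, was at -1.39 in pat1-1 (edgeR adjusted p = 0.00557), 0.23 with pat1-1path2-1 (0.578), 0.90 with path1-4path2-1 (0.0336) and -2.80 with all 3 mutations (3.71e-06). HIS1-3 was at -3.10 in pat1-1path2-1 (edgeR adjusted p = 1.08e-07). RD26, an ABA-induced NAC transcription factor gene, was at -0.70 in the triple mutant (edgeR adjusted p = 4.2e-05) and -1.07 in pat1-1path2-1 (1.22e-06).

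**Figure D4:**
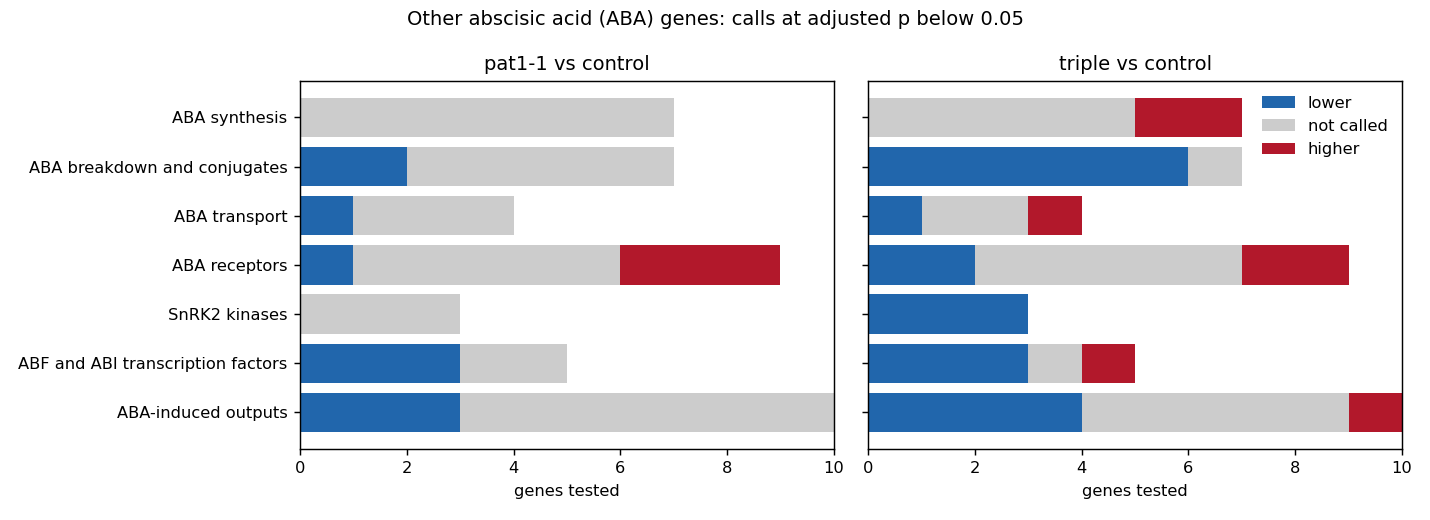
Number of tested genes (horizontal axes) in 7 lists of other ABA genes that were lower (blue), not called (grey) or higher (red) at edgeR adjusted p below 0.05, in pat1-1 and in the triple mutant against the control. In the triple mutant 6 of 7 breakdown and conjugate genes and 3 of 3 SnRK2 genes are lower, and 2 of 7 synthesis genes are higher. Of all genes tested, 22.6% are lower and 22.8% higher in the triple mutant, and 10.9% and 12% in pat1-1.

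Genes whose levels ran most like those of NCED3 were ranked by Pearson's r of log2 CPM over the 24 libraries, which share genotypes and tissue, among 16263 genes whose mean log2 CPM was 1 or more. The 5 highest outside the 10 genes were the cold-regulated gene COR15B (r = 0.950), AT1G16850 (0.937), the ferric reductase gene FRO4 (0.935), the beta-galactosidase gene BGAL8 (0.934) and AT4G30350 (0.934). HAI2 ranked 79 (r = 0.878) and ABI2 154 (0.859), while HAI1 ranked 1065 (0.717), PP2CA 1213 (0.703), ABI1 1737 (0.650), HAB1 6427 (0.190) and HAB2 6443 (0.188). COR15B was at -1.15 in pat1-1 (edgeR adjusted p = 0.0001), 0.55 in pat1-1path2-1 (0.00966) and -2.35 in the triple mutant (1.81e-09), as log2 fold changes from the control.

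Markers of cell types and of the clock moved beside these genes, and their part in the results was not tested. NCED3 and ABCG25 are expressed in the vasculature. The summed level of 3 phloem markers was 169 to 189 TPM in the control, 140 to 177 for path1-4 and 164 to 218 for path2-1. With pat1-1 it was 118 to 126 TPM alone, 109 to 112 beside path1-4, 144 to 153 beside path2-1 and 115 to 153 with both, against 187 to 197 for path1-4path2-1. All 3 fell in pat1-1, and in the triple mutant SUC2, the companion cell sucrose transporter, fell by 0.77 (edgeR adjusted p = 2.28e-05), APL was at -0.29 (0.0403) and AHA3 at -0.11 (0.33). Of these phloem markers, 3 were also called lower in pat1-1path1-4, 2 in pat1-1path2-1 and 1 in path1-4path2-1, which lacks pat1-1. The summed level of 5 guard cell markers was 85.8 to 105 TPM in the control and 78.2 to 107 in the 3 single mutants and pat1-1path1-4. It was 62.9 to 69.1 TPM for pat1-1path2-1, 69.8 to 78.4 for path1-4path2-1 and 66.4 to 77.7 for the triple mutant, with 2 of 5 called lower in the triple mutant (SLAC1 -1.34, edgeR adjusted p = 0.000155; KAT1 -0.78, 9.04e-05) and MYB60 at -0.23 (0.0792). Called lower were also 2 of the 5 in pat1-1 (SLAC1 -0.75, edgeR adjusted p = 0.0284; KAT1 -0.39, 0.0392), 3 in pat1-1path1-4 (SLAC1 -1.09, 0.00206; KAT1 -0.48, 0.0101; MYB60 -0.45, 0.00267), 3 in pat1-1path2-1 and 1 in path1-4path2-1. Beside these phloem and guard cell counts, the share of all genes that fell was 10.9% in pat1-1, 15.4% in pat1-1path1-4 and 16.7% in pat1-1path2-1. It was 10.3% in path1-4path2-1 and 22.6% in the triple mutant. GC1, the most abundant of the 5 in the control, was at 20.8 to 44.2 TPM there, 36.1 to 54.3 for pat1-1 and 40.1 to 42.8 for pat1-1path1-4, with no call (edgeR adjusted p = 0.0969 and 0.142). Of the clock genes, LHY was at 0.53 in pat1-1 (edgeR adjusted p = 0.00171), 0.85 in pat1-1path2-1 (8.94e-06) and 2.19 in the triple mutant (1.17e-11), where CCA1 was at 0.98 (2.54e-09), GI at -0.63 (4.5e-07), TOC1 at 0.34 (0.00035) and PRR5 at -0.94 (0.00515). Genotypes without pat1-1 also moved: of LHY and CCA1, 1 was called higher in path2-1 and 2 in path1-4path2-1 (0.00983% and 9.18% of all genes). Mean LHY was 19.8 TPM in the control, 28.2 in pat1-1, 33.6 in path2-1 and 40.1 in path1-4path2-1. The root marker PYK10 rose by 1.76 (edgeR adjusted p = 0.000177) and NAI2 by 0.88 (0.00873) in the triple mutant, where of the leaf markers PSAF fell by 0.45 (0.000214) and RBCS1A and RCA rose by 0.48 (0.0118) and 0.28 (0.021). BGLU21, the remaining one of 3 root markers, had 1 count in the triple mutant and 0 in every other genotype, too few to be tested. Of the flower markers AG fell by 2.04 in the triple mutant (edgeR adjusted p = 5.75e-05) and PI rose by 2.66 (0.0013). In pat1-1, AG rose by 1.17 (edgeR adjusted p = 0.00365) and PI by 2.44 (0.00961), and both also rose in pat1-1path1-4, by 0.78 (0.0308) and 2.18 (0.0151). AG fell in pat1-1path2-1 (-0.81, edgeR adjusted p = 0.0466) and path1-4path2-1 (-0.97, 0.026). Both were under 3 TPM in every library.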

How the data were processed

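Per the submitters' processing notes, reads were aligned with STAR 2.5.1b and the build was TAIR10. How reads were counted, on which annotation and whether by strand was not given in the sources used here, so reads of overlapping or antisense genes may be shared. The deposited counts are whole numbers per gene, and the deposited TPM were made from them by the authors: per gene, TPM divided by count varied by at most 0.1% between scaled libraries, in 20692 of 20692 genes with counts of 10 or more. Levels here are TPM, and tests use counts.

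Counts of all 24 libraries were fitted in edgeR 4.0.16 (R 4.3.3, limma 3.58.1) with 1 term per genotype, TMM scaling and the filterByExpr defaults, which left 20346 of 37336 genes. Each of 17 contrasts was tested two-sided with the quasi-likelihood F test, and Benjamini-Hochberg adjustment ran over all genes tested, with calls below 0.05. The standard error is the log2 fold change divided by the square root of F. The biological coefficient of variation was 10.9%. Labels say biological replicates without naming plants or pools, so p-values measure the spread between these samples. Replicate numbers pair no libraries, and no block was used.

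The genes, lists and tests were chosen with earlier results of these data known. Named genes are the 10 members, up to 3 genes of each list by smallest adjusted p in the triple mutant, and the 5 genes most like NCED3. Named outside this rule are PAT1, PATH1 and PATH2, and from the lists BG1, GC1 and BGLU21. Genes followed into other genotypes after their values were seen are NCED5, HIS1-3, RD29B, RD26, ABCG25, COR15B, LHY and CCA1. The same holds for BG1, BG2, CYP707A3, UGT71C5, the SnRK2 genes, the phloem markers, SLAC1, KAT1, MYB60, GC1, AG and PI. Alternatives were DESeq2 1.42.0, RLE factors, no filter, only the compared genotypes, no organelle genes, removal of a length trend, leaving out the doubles with path2-1, and leaving out each library. The scripts were tested on simulated data. Promoters were read from RefSeq TAIR10.1. Figures were drawn with matplotlib.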

Additional observations from a re-analysis of the deposited data

Results flagged for a closer look

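The pat1-1 effect on NCED3 differed between backgrounds by a test of the difference itself. It was -1.04 on its own and 0.35 with path2-1 alone, a difference of 1.39 ± 0.21 on the log2 scale (edgeR adjusted p = 0.000331), with each of the 3 pat1-1 libraries below each control library and each of the 3 pat1-1path2-1 libraries above each path2-1 library. With path1-4 and path2-1 together it was -1.53. The value of 1.39 rests on pat1-1path2-1, whose libraries stood apart on the second principal component and whose PAT1 was at 90.3% of the control, not called lower (edgeR adjusted p = 0.258). Between path2-1 and path1-4path2-1 backgrounds, a comparison chosen after the data were seen, the pat1-1 effect differed by -1.88 for NCED3 (edgeR adjusted p = 1.04e-06), by -0.74 for ABI2 (0.00295), by -0.42 for HAB1 (0.0386) and by -1.35 for HAI2 (0.0165). That comparison called 38.1% of all genes, and the test that gave 1.39 called 14.7%. The HAB1 call held in 10 of 18 alternatives. The HAI2 call was lost without triple replicate 2 (edgeR adjusted p = 0.0584) or 3 (0.0534). With 3 libraries per genotype no library was tested as an outlier.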

How the results depend on the processing

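No gene value changed sign while called: over the alternatives, 1896 values of the 8 tested genes stayed on their side of the threshold, some uncalled ones with a change of sign, 51 lost their call and 21 gained one. With only the compared genotypes fitted, the members called were 2 in path1-4path2-1 against the control (HAI1 added, edgeR adjusted p = 0.0434) and 1 in the triple mutant against pat1-1path1-4 (NCED3 lost, 0.063). HAI1 lost its call in the triple mutant against the control (0.0735), and ABI1 lost its call for pat1-1 added to path1-4 (0.0515) and to path1-4path2-1 (0.0791). For pat1-1 added to path2-1, HAI1 (0.0117) and NCED3 (0.00402) gained one, as did HAB2 in the triple mutant against pat1-1path2-1 (0.0353) and in the comparison chosen after the data were seen (0.0105). For the departure of path1-4path2-1 from the sum of single effects, 1 member (NCED3) was called with RLE factors (edgeR adjusted p = 0.0469), with no filter (0.0417), with only the compared genotypes (0.036) and by DESeq2 (0.0266), and without control replicate 1 (0.0259) or path1-4 replicate 3 (0.0409), against 0 as reported. The cause was not tested. Leaving out 1 library at a time, the members called ranged from 3 to 4 in pat1-1, 4 to 6 in pat1-1path1-4, 2 to 3 in pat1-1path2-1 and 6 to 7 in the triple mutant, all against the control. They ranged from 4 to 7 for pat1-1 added to path1-4, 3 to 4 added to path2-1 and 5 to 6 added to path1-4path2-1, from 1 to 2 for the triple mutant against pat1-1path1-4, 3 to 5 against pat1-1path2-1, 0 to 1 for the departure of path1-4path2-1, and 2 to 5 for the pat1-1 effect in path1-4path2-1 minus that in path2-1. No paired analysis was possible because the replicate numbers in the labels are shared by no genotypes. Depth limits AHG1 and HAI3, at 10 and 22 counts in all. Pot size, harvest time and pooling cannot be told apart from genotype.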
